A study of Mus musculus with 28 samples.

Results

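Among 34839 genes measured by mRNA sequencing of mouse testis, 56 carry a symbol made of Cfap, Ift, Bbs or Rsph and a number. They were taken by that symbol alone: 26 Cfap genes, 8 Rsph genes, 14 Ift genes and 8 Bbs genes. Cfap and Rsph genes, 34 in all, are described together as flagellum genes, and the 22 Ift and Bbs genes as general cilium genes. The 5 mRNA libraries were 2 from Prdm9 knockout (KO) testis, 2 from Hop2 KO testis and 1 from wild-type testis. All mice were C57BL/6, and the labels call the wild-type library adult but give no age for the knockouts. PRDM9 is the histone methyltransferase that marks meiotic recombination hotspots, and HOP2, encoded by Psmc3ip, helps the recombinase DMC1 in strand exchange. A further library, of meiotic breaks in testis of Prdm9 K/K mice, whose PRDM9 lacks the KRAB domain, is read last. The labels name no deleted exon and are silent on whether libraries of a genotype are separate animals. The p-values therefore cover the spread of these libraries, which may be technical.

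Motile cilia and the sperm tail share an axoneme, a ring of microtubule doublets with a central pair, dynein arms and radial spokes. Cfap proteins (cilia and flagella associated proteins) are mostly parts of that axoneme or of its surroundings, and Rsph proteins build the radial spokes. Intraflagellar transport, carried by Ift proteins in the complexes IFT-A and IFT-B, moves cargo along a growing cilium of any kind, including the non-motile primary cilium that many somatic cells bear, and the BBSome, built of Bbs proteins, is a membrane cargo adaptor of that transport. In the testis the sperm tail is assembled in spermatids, the haploid cells that follow meiosis.

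Values are the authors' TPM, a length-corrected share of transcripts, rescaled between libraries. Read depth is unknown. The targeted genes were checked first. Psmc3ip stood at 3.51 and 5.06 in Hop2 KO testes, below both Prdm9 KO libraries (22.8 and 26.4) and wild type (197), whereas Prdm9 stood at 4.73 and 5.93 in Prdm9 KO testes, 10.7 and 15 in Hop2 KO testes and 6.20 in wild type. The Prdm9 total thus set the Prdm9 KO libraries below Hop2 KO but close to wild type. Spermatid markers summed to 108 and 136 in Prdm9 KO testes, 116 and 176 in Hop2 KO testes and 155697 in wild type, and all 12 of the 29 with a knockout mean of at least 1 were lower in both knockouts. Late spermatocyte markers summed to 286 and 318 in Prdm9 KO testes, 288 and 264 in Hop2 KO testes and 22424 in wild type, with 10 of the 11 that have such a mean lower in each. Sertoli cell markers moved the other way, at 13935 and 14584 in Prdm9 KO testes, 13206 and 18979 in Hop2 KO testes and 3312 in wild type, with 17 of 21 gene rows higher in Prdm9 KO and 18 of 21 in Hop2 KO. Of all genes with a knockout mean of at least 1, 31.2% were lower in each knockout. The share higher was 39.5% in Prdm9 KO and 40.0% in Hop2 KO. In whole tissue, fewer cells of a type and less RNA per cell cannot be told apart.

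Most flagellum genes kept under 10% of their wild-type level in both knockouts, and most general cilium genes kept more. The median flagellum gene had 0.881 in Prdm9 KO testes, 0.795 in Hop2 KO testes and 136 in wild type. The median general cilium gene had 15.6 in Prdm9 KO testes, 14.6 in Hop2 KO testes and 75 in wild type. As a share of its wild-type value, the median flagellum gene stood at 0.898% in Prdm9 KO testes and 0.885% in Hop2 KO testes, and the median general cilium gene at 22.1% and 20.9% in the same genotypes. A mean under 1% of the wild-type level was seen in 18 of 34 flagellum genes and in 0 of 22 general cilium genes, in either knockout. The 2 classes overlapped, since 31 of 34 flagellum genes and 5 of 22 general cilium genes were under 10% in each knockout. Shares under 1% and under 10% were not counted over all genes, so how unusual these are cannot be told. In level too a few flagellum genes stood above most general cilium genes in the knockouts. They were Rsph1 (means of 128 in Prdm9 KO and 135 in Hop2 KO), Cfap20 (53.6 and 57.4), Rsph3b (47.4 and 46.7), Cfap36 (29.0 and 32.5) and Rsph3a (19.3 and 30.3).

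**Figure D1:**
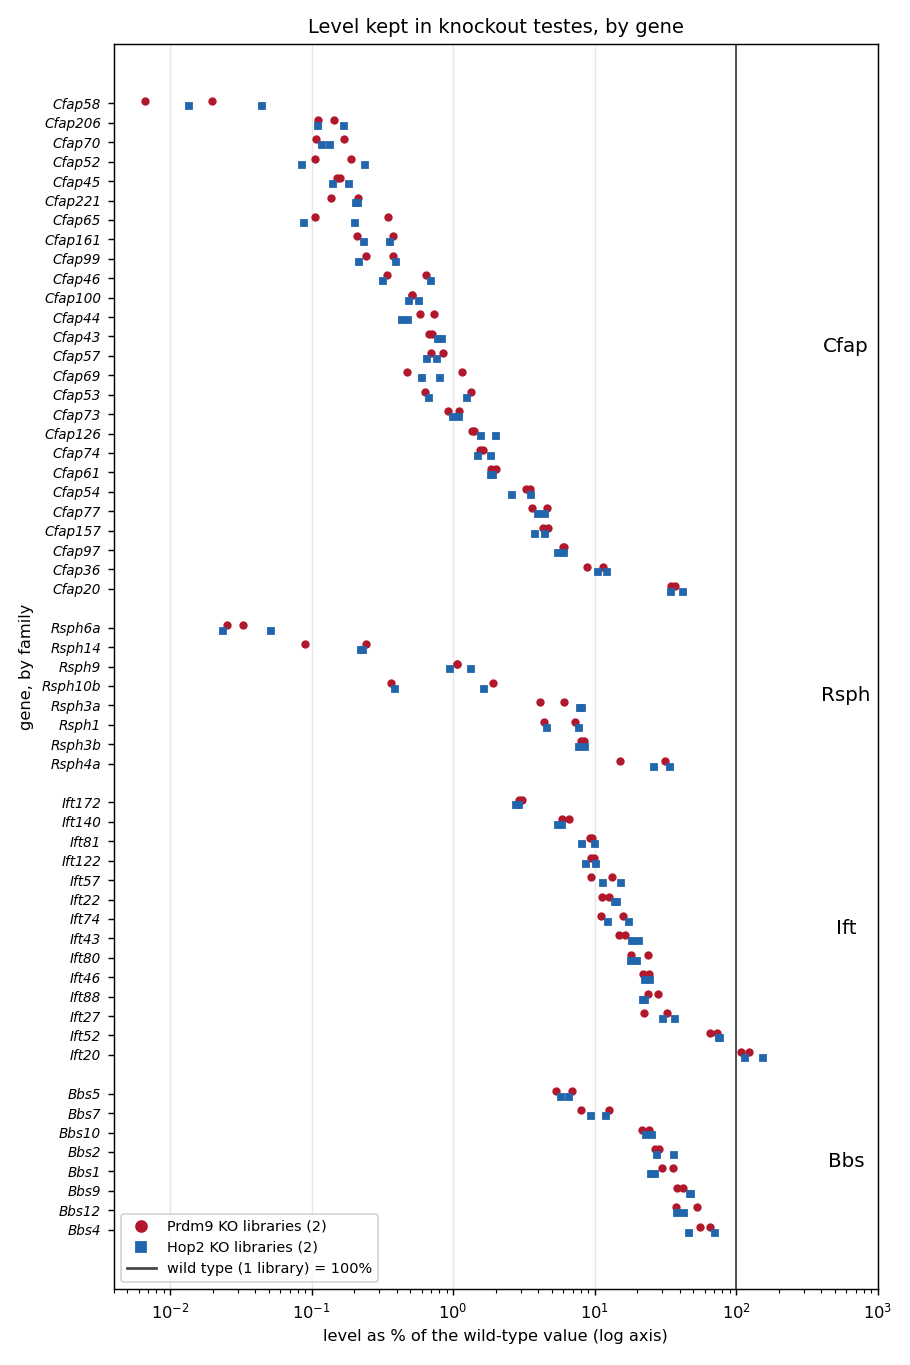
Level of each of the 56 genes in the 2 Prdm9 KO (circles) and 2 Hop2 KO (squares) libraries, as a percentage of the single wild-type library (vertical line at 100%) on a log axis, by family. Most Cfap and Rsph genes lie far left, under 10%, whereas Ift and Bbs genes reach from 2.85% (mean of Ift172 in Hop2 KO) to 135% (mean of Ift20 in Hop2 KO).

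Differences from wild type were tested with limma on log2(value + 1), with Benjamini-Hochberg adjustment over 16261 genes. In Prdm9 KO, 53 of 55 tested members were lower than in wild type and 0 were higher, against 39.4% of all tested genes lower and 34.6% higher. In Hop2 KO the counts were also 53 lower and 0 higher, against 39.5% and 35.0% of all tested genes. Of the 33 tested flagellum genes, 18 had a knockout mean under 1 and so entered the test through the wild-type library, where they are high. Among the 37 members with a knockout mean of at least 1, 15 of 15 flagellum genes and 20 of 22 general cilium genes were lower in each knockout, against 31.2% of all genes with such a mean in either comparison. None (0) of these members was higher, against 39.5% of such genes in Prdm9 KO and 40.0% in Hop2 KO. On rescaled columns the general cilium genes lower were 17 in Prdm9 KO and 16 in Hop2 KO. The single wild-type library has no replicate and was taken to vary like the knockouts, and both comparisons use it.

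The median log2 change of the 15 flagellum genes with a knockout mean of at least 1 was -4.27 in Prdm9 KO testes and -4.37 in Hop2 KO testes. For the 22 general cilium genes, all of which have such a mean, the medians were -2.14 and -2.19, and the changes lay between -5.05 and 0.42. Over all 14244 genes with such a mean the medians were 0.24 and 0.26. With the 18 weaker genes added, the flagellum medians were -5.42 and -5.45, beside -0.08 and -0.06 over all 16261 tested genes, and the changes lay between -8.70 and -1.37. In Prdm9 KO, 6 of these 15 flagellum genes had a more negative change than Ift172, the general cilium gene with the most negative one, and 6 of 22 general cilium genes lay above Cfap20, the tested flagellum gene with the least negative one. In Hop2 KO these counts were 5 and 5. On columns rescaled to an equal sum the all-gene median shifted to 0.77 in Prdm9 KO and 0.68 in Hop2 KO. There the medians of all tested flagellum genes were -4.70 and -4.73 and the general cilium medians -1.22 and -1.40. The general cilium class thus stayed below the median of all genes. The flagellum medians include the genes that entered the test through the wild-type library, and the 15 others were not summarized apart here.

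**Figure D2:**
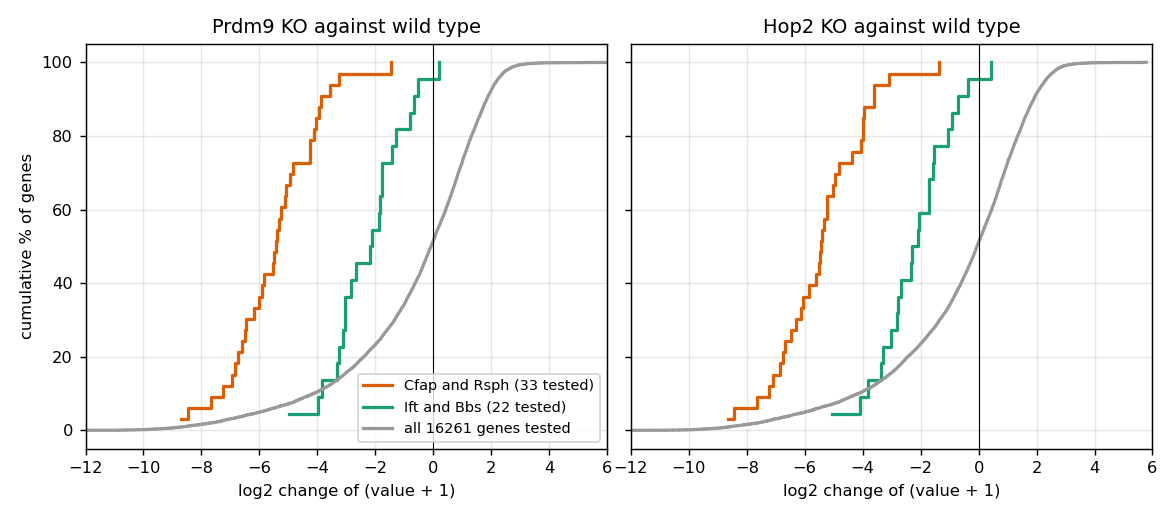
Cumulative percentage of genes by log2 change of (value + 1), Prdm9 KO against wild type on the left and Hop2 KO against wild type on the right, for the 33 tested Cfap and Rsph genes, the 22 Ift and Bbs genes and all 16261 tested genes. The Cfap and Rsph curve lies left of the Ift and Bbs curve, with medians of -5.42 and -2.14 in Prdm9 KO, and 18 of its 33 genes have a knockout mean under 1.

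Cfap206, which in ciliates docks a radial spoke, had the most negative log2 change of (value + 1) among members. As a share of the wild-type level Cfap58, whose loss in mice malforms the sperm tail, kept less (0.0132% in Prdm9 KO and 0.0291% in Hop2 KO) than Cfap206 (0.128% and 0.140%). Cfap206 was at 0.984 and 1.28 in Prdm9 KO testes, 0.984 and 1.5 in Hop2 KO testes and 887 in wild type. All 4 knockout libraries lay within a narrow band far below wild type, and the log2 change was -8.70 ± 0.22 (SE) in Prdm9 KO (limma, adjusted p = 8.22e-05) and -8.64 ± 0.22 in Hop2 KO (adjusted p = 8.35e-05). Cfap45 and Cfap52 encode proteins inside the doublet microtubules. Cfap45 was at 0.450 and 0.474 in Prdm9 KO testes, 0.421 and 0.547 in Hop2 KO testes and 296 in wild type. Cfap52 was at 0.367 and 0.205 in Prdm9 KO testes, 0.166 and 0.458 in Hop2 KO testes and 194 in wild type. Cfap65, whose loss in mice malforms the sperm tail, was at 0.180 and 0.583 in Prdm9 KO testes, 0.149 and 0.343 in Hop2 KO testes and 169 in wild type. The log2 changes of these genes were -7.67, -7.24 and -6.96 in Prdm9 KO and -7.65, -7.22 and -7.10 in Hop2 KO. Their knockout means of 0.473, 0.299 and 0.314 were under 1. They thus entered the test through the wild-type library, and their calls add no support. Cfap69, another gene needed for the mouse sperm tail, was at 1.8 and 4.35 in Prdm9 KO testes, 2.29 and 3.07 in Hop2 KO testes and 379 in wild type. Its replicates differed more from each other than those of Cfap206, and its log2 changes were -6.62 ± 0.47 and -6.70 ± 0.47.

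Among Cfap genes, Cfap20, Cfap36 and Cfap97 kept a clear level in the knockouts. Cfap20, a protein of the inner junction between the tubules of a doublet, was at 51.7 and 55.4 in Prdm9 KO testes, 52.3 and 62.6 in Hop2 KO testes and 150 in wild type. That was a log2 change of -1.47 ± 0.15 in Prdm9 KO (limma, adjusted p = 0.00278) and -1.37 ± 0.15 in Hop2 KO (adjusted p = 0.00321), the least negative of the 33 tested flagellum genes. After quantile normalization these were -0.48 (adjusted p = 0.0663) and -0.43 (adjusted p = 0.0871). Cfap36, which binds the small GTPase ARL3, was at 25.2 and 32.7 in Prdm9 KO testes, 30.1 and 34.9 in Hop2 KO testes and 285 in wild type. Cfap97 was at 13.2 and 13.4 in Prdm9 KO testes, 13.5 and 12.1 in Hop2 KO testes and 221 in wild type. The log2 changes of Cfap36 were -3.26 and -3.09 and those of Cfap97 were -3.96 and -4.01. Cfap54, a central pair protein, had log2 changes of -3.88 and -3.95 and kept 3.38% and 3.09% of its wild-type level. It was at 0.897 and 0.963 in Prdm9 KO testes, 0.983 and 0.718 in Hop2 KO testes and 27.5 in wild type. Its knockout mean of 0.890 was under 1, so it entered the test through the wild-type library. Cfap126, also known as Flattop and studied in basal body placement, was at 5.04 and 5.26 in Prdm9 KO testes, 5.90 and 7.45 in Hop2 KO testes and 372 in wild type. It stood at 1.38% and 1.79% of its wild-type level, with log2 changes of -5.92 and -5.61.

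The radial spoke genes divided by member. Rsph6a, a spoke head protein of the sperm tail in mice, was at 0.0996 and 0.129 in Prdm9 KO testes, 0.0927 and 0.204 in Hop2 KO testes and 394 in wild type, with log2 changes of -8.47 ± 0.11 and -8.43 ± 0.11. Rsph4a, its relative in motile cilia of the airway, was at 0.0792 and 0.0381 in Prdm9 KO testes, 0.0869 and 0.0665 in Hop2 KO testes and 0.254 in wild type. It was the 1 member below the mean of 1 needed for testing. Rsph1, another spoke head gene, had the highest wild-type value of all members and was still at 95.8 and 159 in Prdm9 KO and 101 and 169 in Hop2 KO, against 2179 in wild type. Its log2 changes were -4.13 ± 0.48 (limma, adjusted p = 0.00388) and -4.05 ± 0.48 (adjusted p = 0.00399). In both genotypes the library numbered 2 was the higher one for Rsph1. Rsph9, also of the spoke head, was at 3.46 and 3.45 in Prdm9 KO testes, 4.32 and 3.06 in Hop2 KO testes and 323 in wild type. The spoke stalk genes Rsph3a and Rsph3b are close copies, so reads may have been split between them and their separate values are uncertain. Rsph3a was at 15.6 and 23.1 in Prdm9 KO testes, 30.6 and 29.9 in Hop2 KO testes and 377 in wild type. Rsph3b was at 48.8 and 46.0 in Prdm9 KO testes, 44.5 and 48.9 in Hop2 KO testes and 576 in wild type. Of the less studied members, Rsph14 was at 0.0438 and 0.119 in Prdm9 KO testes, 0.113 and 0.109 in Hop2 KO testes and 49.0 in wild type. Rsph10b was at 0.265 and 1.40 in Prdm9 KO testes, 0.283 and 1.20 in Hop2 KO testes and 72.5 in wild type, so its replicates were far apart and its log2 changes of -5.40 and -5.45 carried an SE of 0.56.

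Intraflagellar transport genes ranged from changes as negative as those of many flagellum genes to no measured decrease. The median log2 change of 14 Ift genes was -2.74 in Prdm9 KO and -2.51 in Hop2 KO, with 13 lower in each. Of all genes with a knockout mean of at least 1, 31.2% were lower in each. Ift172, an IFT-B protein that acts at the turn of transport at the tip of the cilium, was at 17.1 and 16.4 in Prdm9 KO testes, 16.3 and 15.6 in Hop2 KO testes and 559 in wild type, the highest wild-type value among Ift and Bbs genes. Its log2 changes were -4.98 ± 0.10 (limma, adjusted p = 4.44e-05) and -5.05 ± 0.10 (adjusted p = 4.3e-05). The IFT-A complex carries cargo back to the cell body and is represented by 3 members. Ift140 was at 30.4 and 27.2 in Prdm9 KO testes, 27.4 and 25.4 in Hop2 KO testes and 463 in wild type. Ift122 was at 29.1 and 30.4 in Prdm9 KO testes, 26.8 and 31.4 in Hop2 KO testes and 308 in wild type. Ift43 was at 44.6 and 48.5 in Prdm9 KO testes, 54.5 and 61.7 in Hop2 KO testes and 297 in wild type. All 3 were lower in each knockout, with median log2 changes of -3.33 and -3.36.

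The IFT-B core, which holds the tubulin cargo site and the anchor of the complex, had medians of -2.10 in Prdm9 KO and -2.08 in Hop2 KO over 7 members. Ift81, part of the tubulin-binding module, was at 7.96 and 8.26 in Prdm9 KO testes, 7.02 and 8.72 in Hop2 KO testes and 86.3 in wild type. The small GTPase gene Ift22 was at 40.8 and 36.2 in Prdm9 KO testes, 46.0 and 45.0 in Hop2 KO testes and 322 in wild type. The related Ift27, a GTPase that in mice links IFT-B to BBSome exit, kept a larger share of its wild-type level, at 20.6 and 14.2 in Prdm9 KO testes, 23.5 and 19.5 in Hop2 KO testes and 63.6 in wild type. Its Hop2 KO change of -1.53 did not pass without Hop2 KO replicate 2 (-1.40, limma, adjusted p = 0.0572) or on rescaled columns (-0.74, adjusted p = 0.0714). Ift52, which joins the core to the peripheral subunits, was at 35.2 and 31.5 in Prdm9 KO testes, 37.1 and 36.8 in Hop2 KO testes and 48.2 in wild type. Its log2 changes were -0.52 ± 0.12 (limma, adjusted p = 0.0208) and -0.38 ± 0.12 (adjusted p = 0.0484). They turned to 0.39 (adjusted p = 0.0402) and 0.41 (adjusted p = 0.0342) on rescaled columns, so its direction depended on the scaling. The Prdm9 KO change did not pass without the replicate-2 Prdm9 KO library, the replicate-1 Hop2 KO library or the replicate-2 Hop2 KO library (limma, adjusted p = 0.0801, 0.0568 and 0.0562), and the Hop2 KO change did not pass without any one of the 4 knockout libraries (adjusted p = 0.0794 to 0.136). Ift20, a peripheral IFT-B protein also found at the Golgi, was at 114 and 131 in Prdm9 KO testes, 122 and 163 in Hop2 KO testes and 106 in wild type. All 4 knockout libraries lay above wild type, yet the log2 changes of 0.21 ± 0.23 (limma, adjusted p = 0.439) and 0.42 ± 0.23 (adjusted p = 0.173) did not pass. On rescaled columns they were 1.14 and 1.22 and passed.

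Of the 4 families, Bbs genes had the least negative median log2 change, -1.59 in Prdm9 KO and -1.64 in Hop2 KO. In each knockout 7 of 8 were lower, against 31.2% of all genes with a knockout mean of at least 1. Bbs5, a lipid-binding subunit, was at 5.0 and 6.52 in Prdm9 KO testes, 5.47 and 6.21 in Hop2 KO testes and 94.2 in wild type, with log2 changes of -3.83 ± 0.21 (limma, adjusted p = 0.000632) and -3.80 ± 0.21 (adjusted p = 0.000627). Bbs7 was at 4.64 and 7.34 in Prdm9 KO testes, 5.50 and 7.02 in Hop2 KO testes and 58.3 in wild type. These were the 2 Bbs genes with the most negative changes. Bbs2, which shares the core of the BBSome with Bbs7, kept a larger share, at 10.7 and 11.4 in Prdm9 KO testes, 11 and 14.6 in Hop2 KO testes and 39.9 in wild type. The BBSome subunit Bbs9 was at 25.9 and 23.7 in Prdm9 KO testes, 29.0 and 29.4 in Hop2 KO testes and 61.7 in wild type. On rescaled columns its change in Hop2 KO was -0.26 and did not pass (limma, adjusted p = 0.104), nor did that of Bbs1 in Prdm9 KO (-0.59, adjusted p = 0.0681). Bbs4 was at 7.68 and 9.06 in Prdm9 KO testes, 6.36 and 9.85 in Hop2 KO testes and 13.8 in wild type, and its log2 changes of -0.66 (limma, adjusted p = 0.125) and -0.73 (adjusted p = 0.103) did not pass. Without Hop2 KO replicate 2 the change in Hop2 KO was -1.01 and passed (limma, adjusted p = 0.0393), and on rescaled columns the changes were 0.19 and 0.01. Subunits of this single complex were thus at unequal shares of their wild-type levels, from 6.11% for Bbs5 to 60.6% for Bbs4 in Prdm9 KO. Bbs10 and Bbs12 are chaperonin-like proteins that help assemble the BBSome. Bbs10 was at 2.32 and 2.61 in Prdm9 KO testes, 2.75 and 2.47 in Hop2 KO testes and 10.7 in wild type. Bbs12 was at 1.36 and 1.91 in Prdm9 KO testes, 1.36 and 1.53 in Hop2 KO testes and 3.59 in wild type, with log2 changes of -0.81 and -0.91. That in Hop2 KO did not pass without Hop2 KO replicate 1 (-0.86, limma, adjusted p = 0.0578), and on rescaled columns neither did (-0.14 and -0.32).

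**Figure D3:**
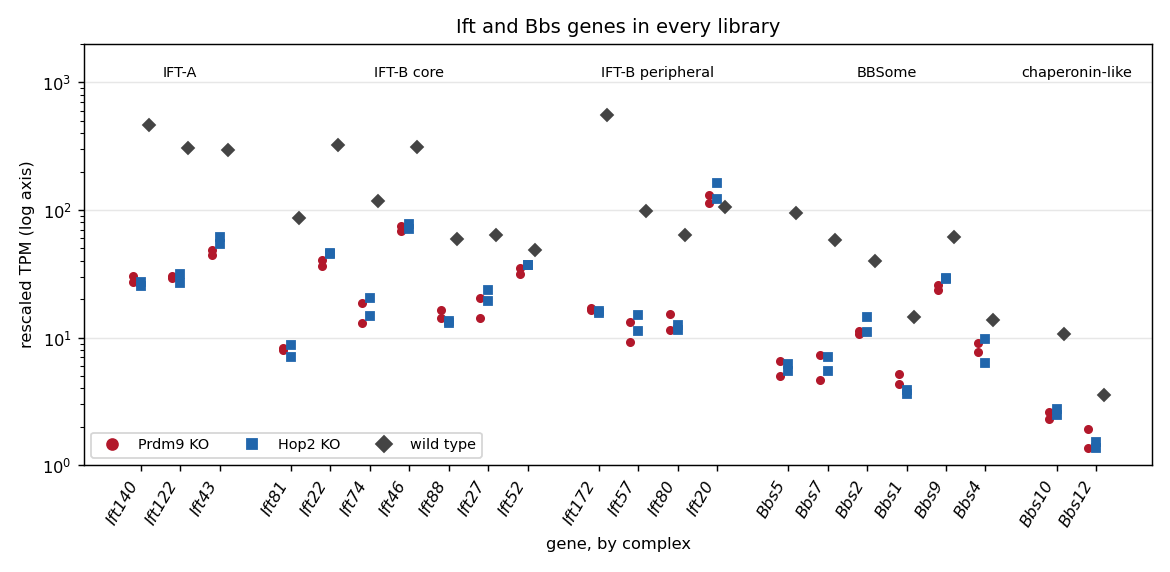
Level of each Ift and Bbs gene in the 2 Prdm9 KO libraries, the 2 Hop2 KO libraries and the wild-type library, in the authors' rescaled TPM on a log axis, by complex. Ift20 is the one gene whose 4 knockout values, 114 to 163, all lie above the wild-type value of 106.

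Other genes of the same machinery were read from lists. Of all genes with a knockout mean of at least 1, 31.2% were lower in each knockout. The share higher was 39.5% in Prdm9 KO and 40.0% in Hop2 KO. The tested transport partners, BBSome partners and transition zone genes below all had such a mean. Of 54 tested axoneme genes without a Cfap or Rsph symbol, 30 had a knockout mean of at least 1, and all 30 were lower in each knockout, with median log2 changes of -5.16 in Prdm9 KO and -5.28 in Hop2 KO. Dnaaf5, a dynein arm assembly factor, had the least negative change, -0.81 and -1.0. Of 23 tested partners of intraflagellar transport, 19 were lower and 1 higher in each knockout, with medians of -2.05 and -2.29. Kif17, a kinesin that works beside the main transport motor, was at 3.04 and 3.23 in Prdm9 KO testes, 2.69 and 3.36 in Hop2 KO testes and 547 in wild type. Tulp3, an IFT-A adaptor for membrane receptors, was the gene that was higher, at 22.5 and 23.1 in Prdm9 KO testes, 22.7 and 26.4 in Hop2 KO testes and 7.75 in wild type. Of 10 BBSome partners, 8 were lower and 2 higher in each knockout. The higher ones were Mkks, a chaperonin-like protein that acts with Bbs10 and Bbs12, at log2 changes of 1.32 and 1.64, and Ccdc28b at 1.76 and 2.26. Of 19 transition zone genes, which form the gate at the base of the cilium, 15 were lower and 3 higher in each knockout, with medians of -1.85 and -1.76.

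Transcription factors known to act on cilium or spermatid genes were listed as well. Of the 10 with a knockout mean of at least 1, 8 were lower in each knockout and 0 were higher. Among all genes with such a mean 31.2% were lower in each, and 39.5% (Prdm9 KO) and 40.0% (Hop2 KO) were higher. The median changes of the 10 were -3.63 in Prdm9 KO testes and -3.83 in Hop2 KO testes. Foxj1, the forkhead factor of motile cilia, was at 0.792 and 0.919 in Prdm9 KO testes, 0.512 and 0.879 in Hop2 KO testes and 132 in wild type. Its knockout values were all under 1, so it is not among the 10 and entered the test through the wild-type library. Rfx2, which binds the X-box motif and is needed for the sperm tail in mice, was at 13.3 and 15.3 in Prdm9 KO testes, 11.7 and 12.8 in Hop2 KO testes and 628 in wild type. Of 3 genes of the multiciliation programme with such a mean, Rfx2 among them, 2 were lower in each knockout. Multiciliated cells of the efferent ducts and epididymis could enter a testis sample. Of 18 markers of that epithelium, 4 had such a mean, of which 1 was lower and 1 higher in each knockout. The 18 summed to 27.2 and 24.3 in Prdm9 KO testes, 23.0 and 19.7 in Hop2 KO testes and 539 in wild type, of which Car2 made 519. In each library 3 to 5 of the 18 were at 0. The secretory genes Lcn5, Lcn8, Lcn9 and Crisp1 of this list were at 0.0710 or less in every library. The highest gene of the list stood at 20.3 and 19.5 in Prdm9 KO testes and 16.1 and 11.6 in Hop2 KO testes. Whether duct cells were present was not tested. Higher Sertoli cell and Leydig cell markers moved with the genotypes as well, and their part in the levels of general cilium genes was not tested. Leydig cell markers summed to 36220 and 49469 in Prdm9 KO testes, 26520 and 73850 in Hop2 KO testes and 5957 in wild type, with 9 of 10 higher in each knockout. Insl3 alone made 31185 and 44712 of these sums in Prdm9 KO testes, 21025 and 68224 in Hop2 KO testes and 5124 in wild type.

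Promoter sequences show what some of these genes share beyond their names. RefSeq promoters on GRCm38.p6, from 250 bases before to 50 after the start of the gene, were found for 44 of 56 members, 48 promoters in all. The X-box was searched on both strands as GTNNCC and GNAAC separated by NNN, where N is any base. It occurred in 9 of these 48 promoters (18.8%) and in 2.17% of 32851 promoters of all genes. The 9 genes were 4 of 25 flagellum genes and 5 of 19 general cilium genes. No match overlapped a match of the other motifs searched. The sites are shown because they are the letters the X-box factors are known to read, each in the direction of its gene with the match in capitals.
Cfap206, chr4:34730208-34730237, minus strand: cgcgttccGTTTCCACGGTTACgcgactgc
Cfap44, chr16:44394764-44394793, plus strand: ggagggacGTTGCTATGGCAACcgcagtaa
Cfap45, chr1:172521103-172521132, plus strand: gttcttggGTTGCTATGGTAACgcgtcagc
Cfap61, chr2:145934768-145934797, plus strand: gccgcgtcGTTTCCTTAGCAACtgtgtgcg
Ift22, chr5:136908079-136908108, plus strand: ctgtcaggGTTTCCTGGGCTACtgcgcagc
Ift22, chr5:136908109-136908138, plus strand: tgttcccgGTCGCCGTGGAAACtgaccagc
Ift57, chr16:49699199-49699228, plus strand: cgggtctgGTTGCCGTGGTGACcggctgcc
Bbs1, chr19:4906605-4906634, minus strand: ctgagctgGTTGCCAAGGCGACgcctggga
Bbs4, chr9:59353464-59353493, minus strand: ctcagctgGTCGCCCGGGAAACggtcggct
Bbs7, chr3:36613489-36613518, minus strand: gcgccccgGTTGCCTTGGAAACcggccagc

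Genes with such a site were spread over the whole range of change. The Prdm9 KO log2 changes of the 4 flagellum genes were -8.70 for Cfap206, -7.67 for Cfap45, -5.12 for Cfap44 and -4.94 for Cfap61. Those of the 5 general cilium genes were -3.11 for Bbs7, -3.04 for Ift57, -3.03 for Ift22, -1.43 for Bbs1 and -0.66 for Bbs4, the last of which did not pass the test. The forkhead motif GTAAACA, either strand, occurred in 2 member promoters (4.17%), those of Cfap20 and Cfap43, and in 3.65% of all promoters. The MYB motif CAACNGNC, either strand, occurred in 11 member promoters of 10 genes (22.9%) and in 10.3% of all promoters. The whole promoters of Cfap206, which had the most negative change on the log2(value + 1) scale, and of Ift20, which was not lower, are given for comparison, with the X-box match of Cfap206 in capitals. In Ift20 no letters are in capitals.
Cfap206, chr4:34730157-34730456, minus strand: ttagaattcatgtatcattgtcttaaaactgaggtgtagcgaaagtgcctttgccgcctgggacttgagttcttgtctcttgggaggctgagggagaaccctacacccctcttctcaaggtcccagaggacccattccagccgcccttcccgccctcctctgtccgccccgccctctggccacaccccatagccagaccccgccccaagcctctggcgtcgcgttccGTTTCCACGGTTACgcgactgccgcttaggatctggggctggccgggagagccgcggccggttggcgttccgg
Ift20, chr11:78536111-78536410, plus strand: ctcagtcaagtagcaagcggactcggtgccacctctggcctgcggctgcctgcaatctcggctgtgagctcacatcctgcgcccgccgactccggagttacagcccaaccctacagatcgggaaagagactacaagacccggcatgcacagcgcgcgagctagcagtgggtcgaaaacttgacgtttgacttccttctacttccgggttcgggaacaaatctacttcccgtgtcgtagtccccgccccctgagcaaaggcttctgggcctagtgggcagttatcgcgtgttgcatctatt

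Several members also differed in which transcript led. Of 36 members with a gene value of at least 1 in every library, 8 (22.2%) had one main transcript in wild type and another that led in all 4 knockout libraries. They were 5 flagellum genes (Cfap43, Cfap74, Cfap97, Cfap126 and Cfap157) and 3 general cilium genes (Ift122, Ift172 and Bbs9). The values are estimates in which reads common to several transcripts are divided among them, and they are given without a test. The same count was not made over all genes, so whether 22.2% is unusual cannot be told. With a gene value of at least 5 the count was 6 of 26, and leaving out a knockout library gave 8 or 9 of 36. The knockout leaders of Cfap43 and Cfap74 were weak, at 0.791 to 1.02 and 0.413 to 0.755 in the knockout libraries. For Ift172 the wild-type leader ENSMUST00000201426 was at 0.116 and 0.0563 in Prdm9 KO testes, 0.137 and 1.21 in Hop2 KO testes and 271 in wild type. Its other main transcript, ENSMUST00000041565, was at 12.3 and 14.3 in Prdm9 KO testes, 12.1 and 12.3 in Hop2 KO testes and 251 in wild type. Both thus lay below wild type in every knockout library. That the wild-type leader fell further than the other follows from the way these 8 genes were picked. In Ift122 too both main transcripts lay below wild type. Its wild-type leader ENSMUST00000112923 was at 2.13 and 1.54 in Prdm9 KO testes, 1.67 and 1.23 in Hop2 KO testes and 135 in wild type, and ENSMUST00000112925 was at 16.1 and 15.4 in Prdm9 KO testes, 16.0 and 14.1 in Hop2 KO testes and 77.2 in wild type.

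In Bbs9 one transcript was at a similar level in all 5 libraries on the deposited scale and another was not. ENSMUST00000039798 was at 11.5 and 12.5 in Prdm9 KO testes, 13.4 and 11.2 in Hop2 KO testes and 10.2 in wild type. ENSMUST00000124076, the wild-type leader, was at 0.890 and 0.379 in Prdm9 KO testes, 0.851 and 1.67 in Hop2 KO testes and 20.2 in wild type. Cfap126 was alike among flagellum genes. Its transcript ENSMUST00000129651 was at 2.05 and 1.69 in Prdm9 KO testes, 2.68 and 2.89 in Hop2 KO testes and 2.26 in wild type, while ENSMUST00000027959 was at 0.588 and 1.12 in Prdm9 KO testes, 1.32 and 2.00 in Hop2 KO testes and 179 in wild type. At equal column sums the knockout values of ENSMUST00000129651 would be 2.05 to 3.03, against 1.39 in wild type, and those of Bbs9 ENSMUST00000039798 would be 11.8 to 15.1, against 6.31, so their likeness across genotypes depended on the scaling. In Cfap157, with 2 transcripts, ENSMUST00000150918 made 61.5% and 60.7% of the gene value in Prdm9 KO testes, 59.2% and 61.0% in Hop2 KO testes and 7.21% in wild type.

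**Figure D4:**
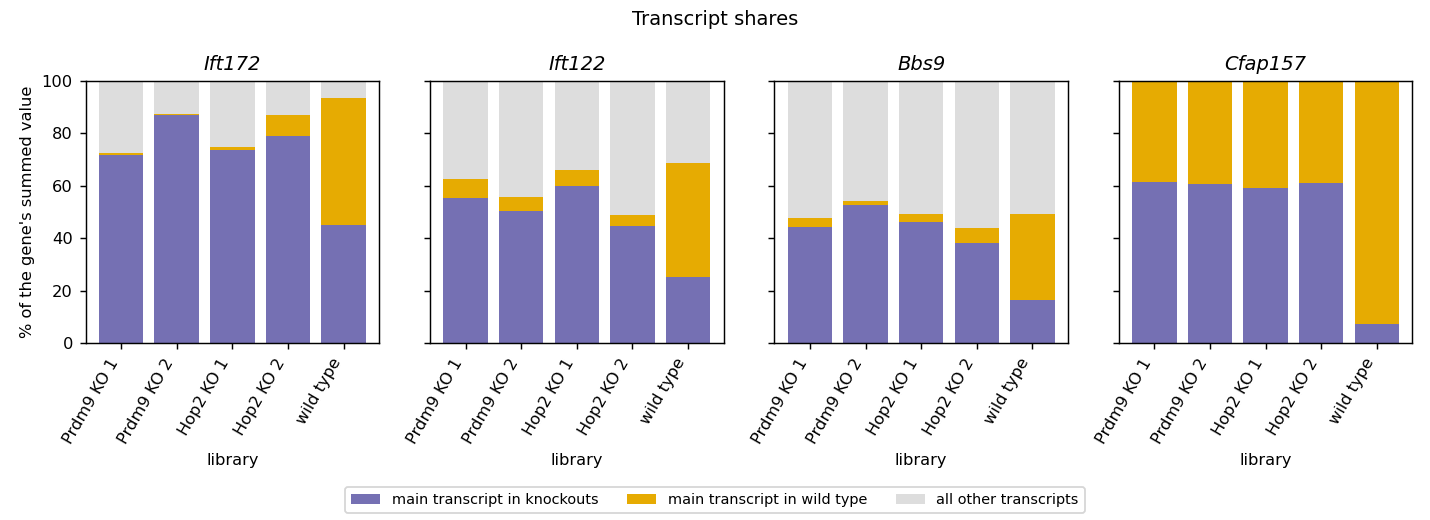
Share of each gene's summed transcript value, in percent, in every library for Ift172, Ift122, Bbs9 and Cfap157. The transcript that leads in the knockouts fills 71.8% to 87.1% of Ift172 in the 4 knockout libraries and 44.9% in wild type, and 59.2% to 61.5% of Cfap157 in the knockouts and 7.21% in wild type.

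The knockouts were also compared with each other in a fit of their 4 libraries. Of 37 members tested, 0 differed by limma after adjustment, against 0.00% of all 14358 tested genes lower and 0.0139% higher in Prdm9 KO. At an unadjusted p under 0.05 there was 1 member, against 3.10% of all tested genes. That member was Rsph3a, at a log2 difference of -0.65 ± 0.20 (limma, adjusted p = 0.972). The next smallest unadjusted p-values belonged, in order, to Ift43 (a log2 difference of -0.31), Ift22 (-0.24), Bbs9 (-0.23) and Cfap126 (-0.31). The median difference over the 37 was -0.06, near the -0.03 over all tested genes, and on rescaled columns it was 0.04, against 0.08 over all genes. In the authors' deposited table, whose groups are not named, 3 of 55 listed members had p under 0.05, near the 3.92% of all 21276 genes listed there, namely Rsph3a (0.0160), Ift43 (0.0236) and Bbs1 (0.0469), each with a q-value of 1. A p above the threshold is no evidence that these genes had equal levels in both knockouts.

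**Figure D5:**
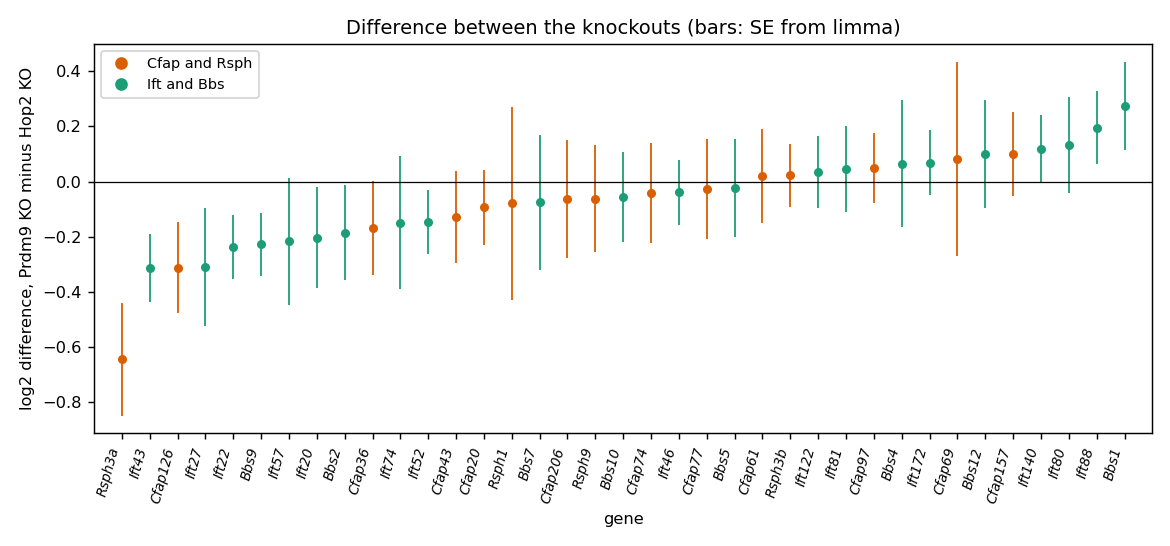
Log2 difference, Prdm9 KO minus Hop2 KO, for the 37 members tested between the knockouts, in order of size, with bars for the SE from limma. Differences run from -0.65 (Rsph3a) to 0.28 (Bbs1), and none passed after adjustment.

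Meiotic breaks at the starts of these genes were read from another library. SSDS, which sequences the single-stranded DNA at meiotic double-strand breaks, was made from 1 testis sample of Prdm9 K/K mice, whose PRDM9 lacks the KRAB domain, and gave 17731 peaks with a median length of 1849 bases. A peak lay within 1000 bases of the start in 33 of the 44 members with a promoter sequence (75%), against 35.8% of all 27025 genes that have one. Members without a promoter sequence were left out of this count. It did so for 17 of 19 general cilium genes (89.5%) and 16 of 25 flagellum genes (64.0%). Expression moved with this count, and its part in the difference between the classes was not tested. Among members with a mean of at least 1 in the 4 knockout libraries 28 of 31 (90.3%) had a peak, and among the others 5 of 13 (38.5%). Of the 10455 genes with both such a mean and a promoter sequence, 67.1% had one. Members without a peak included Cfap44, Cfap45 and the general cilium gene Bbs1, which each hold an X-box match, and the general cilium gene Ift27. The single library allows no test of these shares between conditions.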

How the data were processed

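mRNA values are a signal the authors called TPM, per the file headers, for 34839 genes and 109282 transcripts. Per the submitters' processing notes, the tools include kallisto and sleuth and the builds are GRCm38 and mm10; no versions or transcript set are given in the sources used here. Column sums of 873316 and 825459 (Prdm9 KO), 896480 and 953598 (Hop2 KO) and 1622660 (wild type) show a rescaling between libraries, so the depth is unknown. The design foresaw TPM, and the planned test was kept. The authors also deposited sleuth p-values and q-values. SSDS peaks come as positions without scores; MACS2 2.1.0.20150420 is named in the notes.

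Members and lists were chosen with earlier results of these data known. The test was limma (version 3.58.1, R version 4.3.3) on log2(value + 1) with a trend of variance on intensity, for genes with a mean of at least 1, with Benjamini-Hochberg adjustment over all of them and a threshold of 0.05, two-sided. Changes on this scale understate those of weakly expressed genes. Comparisons with wild type used all 5 libraries, and the comparison of knockouts its 4. The fit was tested on simulated data. Genes given library by library are, per family, the 3 highest in wild type, the 4 most negative and 3 most positive changes in Prdm9 KO, and the 5 of smallest p between knockouts. Rsph4a, Cfap58 and other genes beside these were added after their values were seen, as were Cfap157 and other genes named for transcripts. The Sertoli list has 20 genes in 21 rows. Alternatives changed the pseudocount, filter, scaling, trend, libraries and block. Unused per-sample columns numbered 0.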

Additional observations from a re-analysis of the deposited data

How the results depend on the processing

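All 33 flagellum genes stayed lower in both knockouts in most alternatives run, with a count of 32 under quantile normalization. Without a filter the count was 34, which adds Rsph4a at log2 changes of -0.24 in Prdm9 KO and -0.22 in Hop2 KO. Moving Cfap20, Cfap36 and Cfap97 to the other class left 30. That count follows from the relabelling alone and tests nothing. Of the 33, 18 had a knockout mean under 1 and entered the test through the wild-type library. The 15 others were not counted apart in the alternatives, nor were their medians taken. The flagellum median was -6.04 in Prdm9 KO and -5.98 in Hop2 KO with a pseudocount of 0.5, -3.74 and -3.73 with 5, -4.70 and -4.73 on rescaled columns, -4.77 and -4.71 after quantile normalization, and -5.19 and -5.22 after median-ratio scaling. Leaving out each knockout library gave -5.58 to -5.38 in Prdm9 KO and -5.51 to -5.36 in Hop2 KO. The general cilium median was -2.23 in Hop2 KO with a pseudocount of 0.5, -1.97 in Prdm9 KO and -2.01 in Hop2 KO with 5, -2.41 and -2.32 with a minimum mean of 5, -1.22 and -1.40 on rescaled columns, -1.41 and -1.38 after quantile normalization, and -1.87 and -1.93 after median-ratio scaling. Leaving out a library gave -2.20 to -2.13 and -2.19 to -2.17. General cilium genes called lower numbered 17 in Prdm9 KO and 16 in Hop2 KO on rescaled columns and 18 in each after quantile normalization, against 20. Those called higher numbered 2 in each knockout on rescaled columns, 1 in each after quantile normalization and 1 in Hop2 KO after median-ratio scaling. Ift52 changed sign, to 0.39 and 0.41 on rescaled columns and 0.095 and 0.23 after quantile normalization. The cause was not tested beyond the shift of the all-gene median by scaling.

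Between the knockouts, members at an unadjusted p under 0.05 numbered 2 without a filter, 0 on rescaled columns, 2 with all 5 libraries and 3 with the replicate block, and 0 to 1 without a library; 0 passed adjustment throughout. Replicate 1 minus 2 differences of the genotypes correlated at r = 0.413 over 14358 genes, but with 2 pairs the numbers are not taken to pair the samples. A stricter set of peaks by score was not run, since the peaks carry none.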
